A study of Mus musculus with 5 samples.

Results

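The RELA-only TNF sites near gene starts are 330 ChIP-seq peaks called for the NF-κB subunit RELA in mouse fibroblast-like synoviocytes (FLS), the fibroblasts of the joint lining. They were taken from the RELA TNF list of 2502 peaks, of which 2070 lay on chromosomes 1 to 19 and X. A peak was kept when no summit of the other 3 peak lists lay within 50 bp of its own summit, which left 1646 peaks. It also had to have the start of a protein-coding gene (GENCODE vM21 on mm10) at most 10 kb away. The members were thus selected on the measured peaks themselves, and their presence in the RELA TNF list is not a result. The libraries came from ChIP-seq of C57BL/6 wildtype FLS, in which SOX4 or RELA (p65) was precipitated without treatment or after 10 ng/mL TNF for 16 h. All 4 peak lists were called against 1 input library of untreated FLS. The DNA of 3 cultures was pooled for each library, so each condition is 1 library, and no difference between conditions could be tested. The lists hold no expression values, so the labelled cell type could not be checked against its markers.

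RELA is the transactivating subunit of NF-κB, which in resting cells is held in the cytoplasm by inhibitors of the IκB family. TNF, through its receptor, triggers the destruction of these inhibitors, and NF-κB then enters the nucleus and binds short κB sites in promoters and enhancers. In FLS this pathway drives the cytokines, chemokines and matrix-degrading enzymes of arthritis. Much of the mouse genome outside such elements is made of interspersed repeats, among them the short B1 elements, which descend from the same RNA gene as the Alu elements of primates, and the long L1 elements.

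Sequence was not used to choose the sites, and most of the summits lay in a repeat. The letters of 4 windows of 100 bp around the summits are shown, read from the mm10 reference on its plus strand. All bases outside a marked match are printed in lower case, which does not mark repeats here. The first pair holds the NF-κB consensus, in capitals, in introns of Cnot6l and Olfr279, and shows where in the window the match stood.
Cnot6l (chr5:96157427-96157526): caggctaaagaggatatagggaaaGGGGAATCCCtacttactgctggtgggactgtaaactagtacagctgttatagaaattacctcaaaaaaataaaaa
Olfr279 (chr15:98494054-98494153): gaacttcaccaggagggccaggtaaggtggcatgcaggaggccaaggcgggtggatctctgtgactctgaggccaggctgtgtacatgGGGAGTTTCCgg
The second pair holds none of the recurrent words described further on. They are the site nearest to any start, at Edn1, and a strong site outside soft-masked sequence, in an intron of Rab3gap2.
Edn1 (chr13:42301380-42301479): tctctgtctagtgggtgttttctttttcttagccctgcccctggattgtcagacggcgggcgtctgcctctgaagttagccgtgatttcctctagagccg
Rab3gap2 (chr1:185209206-185209305): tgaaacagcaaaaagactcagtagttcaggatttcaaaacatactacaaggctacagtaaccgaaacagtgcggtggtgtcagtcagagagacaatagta

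The 330 sites made up 13.2% of all RELA TNF peaks (Wilson 95% interval 11.9% to 14.6%) and 20.05% of the 1646 RELA-only peaks (18.2% to 22.1%). Bases within 10 kb of a protein-coding start made up 14.1% of the called bases of these chromosomes. Of all RELA TNF peaks on chromosomes 1 to 19 and X, 19.3% lay as near to a start, and of the 424 with a summit of another list, 16.3% did (13.1% to 20.1%). All intervals cover counting error only, since the peaks of a library are not replicates.

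The members did not crowd at the starts. The distance of a summit from the nearest start ranged from 46 bp to 9934 bp, with a median of 4808 bp (95% interval from order statistics 4312 bp to 5319 bp). Within 1 kb of a start lay 24 sites, 7.27% (4.94% to 10.6%), where the bases so near made up 11.4% of those within 10 kb. Another 148 sites lay at 1 to 5 kb, 44.8% (39.6% to 50.2%) against 42.6% of bases, and 158 at 5 to 10 kb, 47.9% (42.5% to 53.3%) against 45.99%. Upstream of the start lay 149 sites, 45.2% (39.9% to 50.5%), and 47.8% of the bases. The interval thus held the base share in every class but the nearest, where the sites were fewer than the bases.

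**Figure D1:**
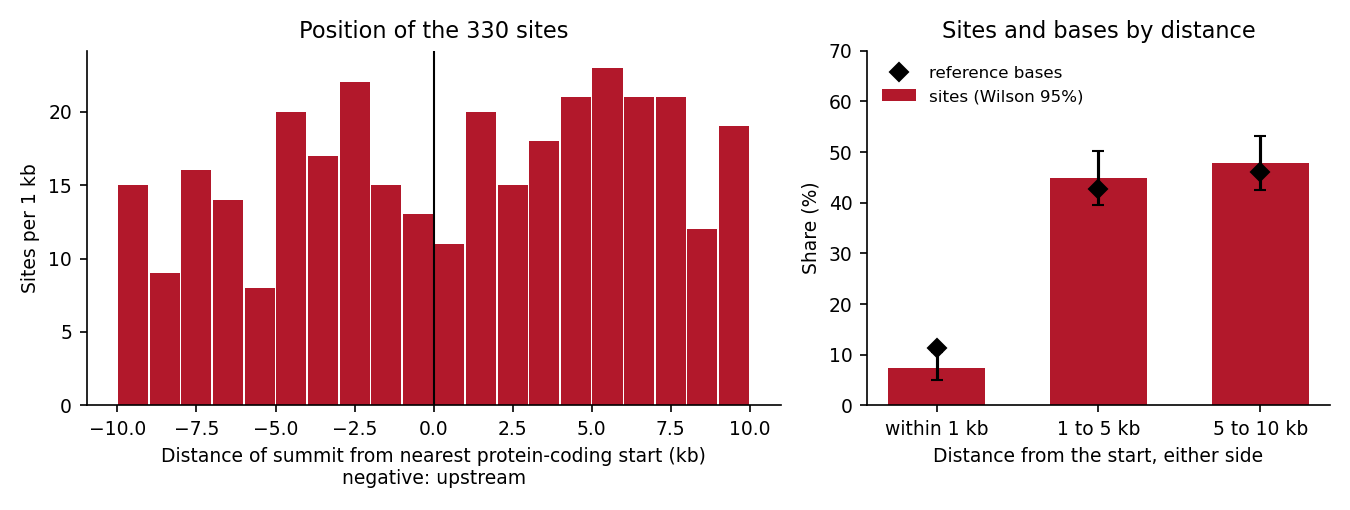
Left, number of the 330 sites per 1 kb by the distance of the summit from the nearest protein-coding gene start, in kb, with upstream negative. Right, share of sites in 3 distance classes (bars, with Wilson 95% intervals) and share of reference bases (diamonds), where 7.27% of sites and 11.4% of bases lie within 1 kb.

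Introns held 180 of the summits, 54.5% (49.2% to 59.8%), and 117 lay outside all annotated genes, 35.5% (30.5% to 40.8%). The RELA-only sites elsewhere had 46.96% in introns (44.3% to 49.7%) and 48.8% outside genes (46.1% to 51.5%). By the rule, those lie more than 10 kb from a start. The 69 sites near starts with a summit of another list had 44.9% in introns (33.8% to 56.6%) and 37.7% outside genes (27.2% to 49.5%). Shares of reference bases in these places are not given. Exons of non-coding transcripts held 17 members, 3′ UTRs held 9, coding sequence held 5 and 5′ UTRs held 2. The share in non-coding exons was 5.15% (3.24% to 8.09%), against 1.90% of the RELA-only sites elsewhere (1.29% to 2.79%). Such exons belong to annotated transcripts without a protein product.

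The nearest starts belonged to 322 genes, and 408 of 21728 protein-coding genes, 1.88%, had a start within 10 kb of a member. In 74 cases the 10 kb around a site held more than one such start, so the gene assigned is the nearest and not a measured target. All but 6 of the 408 genes had a single site. Gm14226 had 4 sites and Txndc11 had 3. The number of sites ranged from 5 on chromosome 12, with 643 protein-coding genes, to 33 on chromosome 11, with 1639. Per 1000 such genes it ranged from 7.78 on chromosome 12 to 23.1 on chromosome 8, with 20.1 on chromosome 11.

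The fold enrichment, which sets the fragments at a summit against the background, each with 1 added, was used in calling the peaks and is given as a description. Its median over the 330 sites was 9.98 (9.48 to 10.98), and it ranged from 1.96 to 35.7. The deposited folds and p-values together fix the number of overlapping fragments at each summit. This number was 21 at the median (20 to 23), with a range of 9 to 71. The background was 1.004 fragments at 257 sites, 77.9% (73.1% to 82.0%), which is the lowest value it took. Among those sites the folds thus differ by the fragments at the summit alone, and not by the local input. A background of 2 fragments or more was found at 17 sites. The median −log10 q was 16.4, and 290 sites had at least 10.

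RELA-only sites elsewhere were of like height, with a median fold of 9.98 and 20 fragments (20 to 21). The 69 RELA TNF sites near starts that had a summit of another list had a median fold of 10.98 (9.98 to 15.5) and 24 fragments (20 to 30). Their upper quartile was 54 fragments and that of the members 31. The intervals of the medians met, and the difference between the groups could not be tested.

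**Figure D2:**
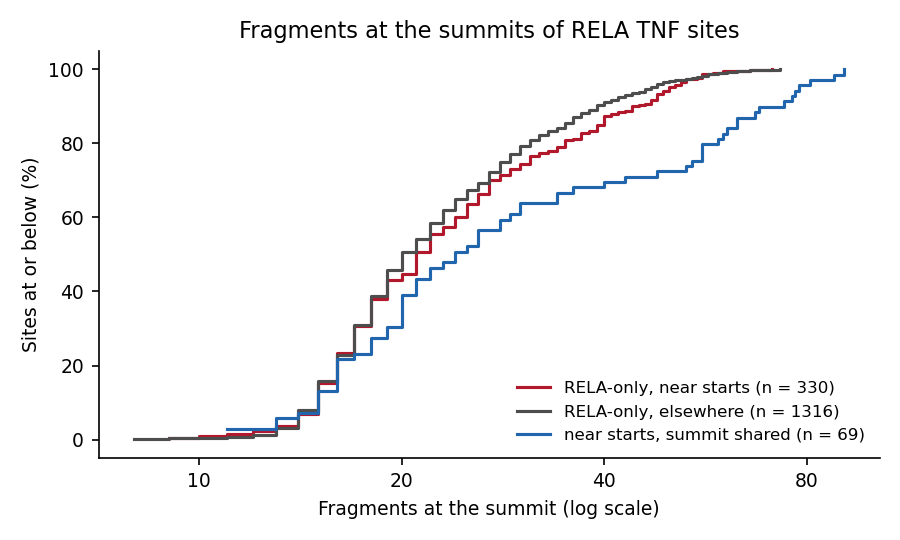
Share of sites with at most the given number of fragments at the summit (log scale), for the 330 RELA-only sites near starts, the 1316 RELA-only sites elsewhere and the 69 sites near starts shared with another list. The shared sites extend to 91 fragments and the 330 sites to 71.

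The peaks were narrow. Their width was 60 bp at the median (58 to 61) and 49 to 115 bp in all, and 328 of 330 were under 100 bp. The peak caller had been given a fragment length of 300 bp and the reads were 50 bases long. Of the shared sites near starts, 64 of 69 were under 100 bp and the widest was 321 bp.

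The highest −log10 q, 98.5, was found at a site 3440 bp upstream of Malt1, the paracaspase that activates NF-κB downstream of antigen receptors. It had 71 fragments and a fold of 35.7, and its summit lay in the exon of Gm22567, a non-coding gene. It was also one of the pair of members nearest to a summit of another list. A RELA untreated summit lay at 265 bp and a SOX4 TNF summit at 271 bp. Next came Cyp27a1, a sterol hydroxylase of bile acid synthesis, with 66 fragments and a fold of 33.4 in its own intron. Gtf2h1, a subunit of the general transcription factor TFIIH, had 60 fragments in its intron. The site 2855 bp upstream of Atad3a, a mitochondrial ATPase, had 58, and the one in Rab3gap2, a regulator of RAB GTPases, had 56. Proca1 had 55 fragments. Slc5a6, the multivitamin transporter, had 53 at 1507 bp upstream, within an intron of the neighbouring gene Atraid. Vstm4 had 52 at 2521 bp upstream, the asparaginase gene Asrgl1 had 52 in its intron, and Rhog had 51 at 3646 bp upstream. Of these 10 summits, the lowest fold was 25.7, and none lay within 1 kb of a start. Soft-masked bases, which mark repeats in the reference, held the summits of all but those at Atad3a and Rab3gap2.

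**Figure D3:**
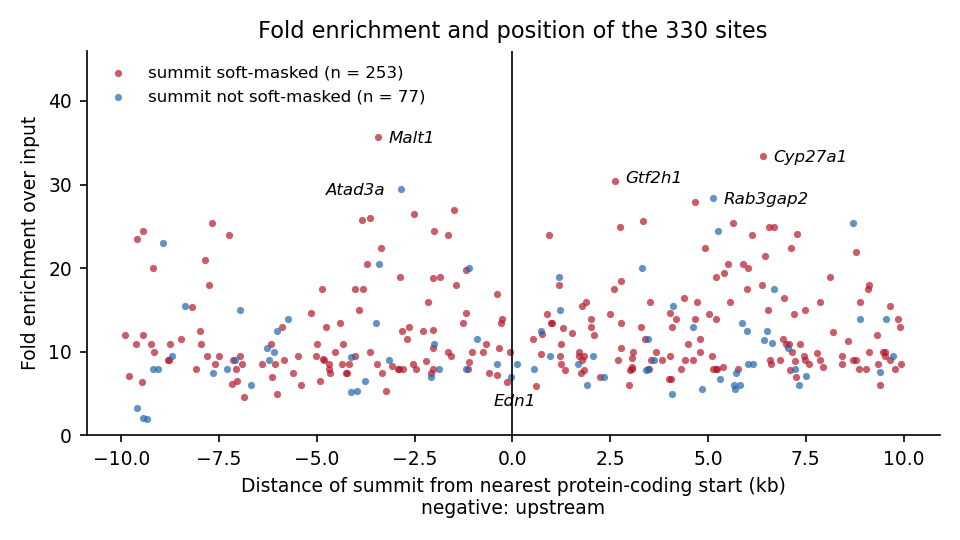
Fold enrichment over the background (input on the axis label) of each of the 330 sites. It is set against the distance of the summit from the nearest protein-coding start in kb, with upstream negative. Red points have a soft-masked summit base (253) and blue points do not (77), and the named sites include Malt1 at a fold of 35.7 and Edn1 at 6.99.

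The sites nearest to starts were not the tallest. The nearest lay 46 bp upstream of Edn1, the gene of the vasoconstrictor peptide endothelin, at chr13:42301400-42301448, with 13 fragments and a fold of 6.99. Next was Bcl2l10, an apoptosis regulator of the BCL family, at 73 bp upstream with 19 fragments. Cdc27, a subunit of the anaphase-promoting complex, followed at 128 bp downstream with 16 fragments, in an exon of a non-coding transcript. The lysine methyltransferase gene Smyd3 had a site 142 bp upstream with 17 fragments over a background of 1.81. Mtmr7, a lipid phosphatase, had 27 fragments at 273 bp upstream and Dhodh, an enzyme of pyrimidine synthesis, 26 at 301 bp. Gja6, a connexin, had 20 at 352 bp, and Sh3d21 and Gpatch3 had 16 and 26, each at 384 bp upstream. Ldhb, a subunit of lactate dehydrogenase, had 33 at 402 bp upstream, the most of these 10. The median fold was 10.2 within 1 kb (8.48 to 12.5) and 9.98 both at 1 to 5 kb and at 5 to 10 kb, with intervals that overlapped.

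Repeats were the most frequent feature of the members. The summit base was soft-masked at 253 of 330 sites, 76.7% (71.8% to 80.9%). Bases within 10 kb of starts were soft-masked in 29.98% of cases, and positions 2000 bp to either side of the same summits in 28.5% (25.2% to 32.0%). RELA-only sites elsewhere had 75.2% (72.7% to 77.4%). The shared sites near starts had 56.5% (44.8% to 67.6%), below the interval of the members. Averaged over 10 bases at the summit, 76.6% of the members' bases were soft-masked, 39.2% at 100 bp to the left, 41.8% at 100 bp to the right, and 30.9% and 31.7% at 500 bp. The excess peaked at the summit and reached past the peaks' own width. It was present within 1 kb of starts (70.8%, 50.8% to 85.1%), in introns (78.3%, 71.8% to 83.7%), outside genes (76.9%, 68.5% to 83.6%) and in exons (22 of 33 summits).

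**Figure D4:**
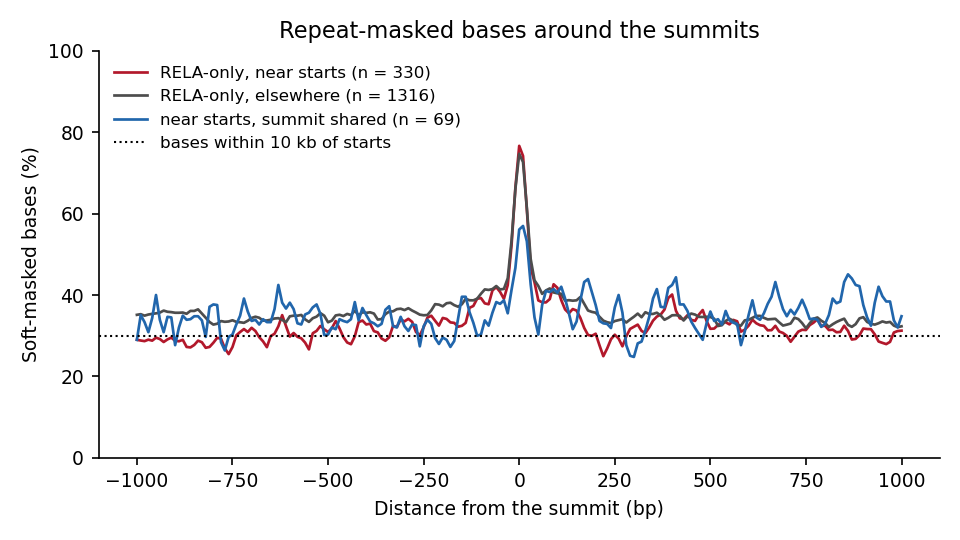
Share of bases that are soft-masked in the reference, in steps of 10 bp to 1000 bp on either side of the summit, for 3 groups of RELA TNF sites. The dotted line is the share of all bases within 10 kb of starts (29.98%), and the 330 sites reach 76.6% at the summit.

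Sites on soft-masked bases had a median fold of 10.5 (9.97 to 11.5) and 22 fragments, and the other 77 had 8.98 (7.98 to 10.5) and 19 fragments. Of the 100 members with the highest −log10 q, 83 were soft-masked. The exact 50 bases around the summit occurred once in the reference at all but 7 sites, 2.12% (1.03% to 4.31%). Copies with mismatches were not counted, so this does not show that the repeats are single copies. Those 7 were 2 of the Txndc11 sites and the sites of Rnaset2b, Gm37596, Gm11236, Pptc7 and Gsta1.

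The members shared letters of a particular kind. Among all words of 10 bases, on either strand, the one held by most windows was GCTGGGATTA, at 71 of 330 sites, 21.5% (17.4% to 26.3%). It was held by 1.52% of the windows 2000 bp away (0.825% to 2.77%) and by 1.01% of the 3587590 tiles of 100 bp within 10 kb of starts. RELA-only sites elsewhere held it in 16.3% (14.4% to 18.4%) and shared sites near starts in 7.25% (3.13% to 15.9%). Its centre lay 10 bp from the summit at the median, and within 20 bp in 63 of the 71 sites. It stood on the strand of the nearest gene in 39 and on the other strand in 32. The 71 sites had a median fold of 12.4 (9.98 to 16.0) and the other 259 had 9.48 (8.98 to 10.5).

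When sites that held that word were set aside and the search was repeated, the next words were CTCAGCCTCC (34 further sites), AGACCAGCCT (19), CCTGCCTCAG (16), ACTTGGGAGG (15), a run of A (13), CAGCCTGGGC (11) and TGAGCCACCA (10). Leaving out the run of A, at least one of these 7 words stood in 177 of 330 windows, 53.6% (48.2% to 58.9%). The words were picked on these windows, so their share there is a description. In windows that did not pick them, they stood in 36.6% of the RELA-only sites elsewhere (34.1% to 39.3%), 18.8% of the shared sites near starts (11.4% to 29.6%), 8.45% of the shared sites elsewhere (5.98% to 11.8%), 3.48% of the windows 2000 bp away (2.33% to 5.17%) and 2.57% of the tiles. Of the members, 58.3% held one within 1 kb of a start (38.8% to 75.5%), 58.8% at 1 to 5 kb (50.7% to 66.4%) and 48.1% at 5 to 10 kb (40.4% to 55.8%). They were held by 170 of the 253 soft-masked sites and by 7 of the 77 others. Those 77 shared frequent words of their own, led by GAGCCCAGGA at 5 sites and ACATGGTGAA at 4. A lack of the 7 words therefore does not mark a site as free of recurrent sequence.

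For some frequent words of the members, though not for GCTGGGATTA, the commoner spelling differed between the sites and the reference around gene starts. The word CCTGTAATCC stood in 54 members, 16.4% (12.8% to 20.7%), and in 4231 tiles, 0.118%, a ratio of 139. With the substitution G4T, counted from its first base, it reads CCTTTAATCC, which stood in 20 members, 6.06%, and in 34739 tiles, 0.968%, a ratio of 6.26. Of these 2 forms, the commoner in the reference near starts was therefore the rarer at the sites. As background, the form with G is that of the consensus of primate Alu elements, and the form with T that of mouse B1. The overlapping word TGGGATTACA, picked in the same way, showed a like reversal, with a ratio of 111 against 5.25 for TGGGATTAAA. GCTGGGATTA showed none, with 71 members, 36228 tiles and a ratio of 21.3. Its substituted forms that were counted stood in 5 to 9 members and 2902 to 4076 tiles, at ratios of 14.7 to 33.7. Substituted forms were counted in the members and the tiles alone. No reads and no genome of another species were used here, and the species of the DNA behind these peaks was not tested. The peaks, their folds and the genes beside them are therefore given as called, and are not shown to be binding of RELA to the mouse genome.

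The 7-base word GCTGGGA, found in B1 and in Alu elements, stood in 104 members, 31.5% (26.7% to 36.7%), in 24.01% of RELA-only sites elsewhere, in 4.70% of the windows 2000 bp away and in 4.28% of tiles. Sequence was otherwise richer in G and C than at the RELA-only sites elsewhere, with a median of 49% (47% to 50%) against 44% (44% to 45%). The shared sites near starts had 45% (40% to 48%). No CpG stood in 131 of the members' windows, 39.7% (34.6% to 45.1%), and in 54.0% (51.3% to 56.6%) of those elsewhere. With windows of 200 bp, the median GC share of the members fell to 45.5% (45% to 46.5%), and that of the other groups is not given.

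Words of κB sites were rare, at shares near those of the surroundings within wide intervals. The NF-κB consensus stood in 4 members, 1.21% (0.472% to 3.07%), in 9 of 660 windows 2000 bp away, 1.36%, and in 0.885% of tiles. The 4 were in introns at Cnot6l, a subunit of the CCR4-NOT deadenylase, at Acy1, an aminoacylase, at the olfactory receptor gene Olfr279, and in Zc3h7a, by Txndc11. The word GGAANTTCC stood in 1 member, 0.303%, against 0.157% of tiles, and that site, looked up after the count was seen, lies in the 3′ UTR of Nfkbie. Its summit is soft-masked, and the recurrent word GCTGGGATTA is centred 9 bp from it. GGGNNTTCC stood in 0 of 330 members, with a Wilson upper bound of 1.15% (0.909% if a count of 0 is taken to allow 3 counts), and in 1.13% of tiles. In the 77 sites outside soft-masked bases the consensus stood in 3, 3.90% (1.33% to 10.8%), an interval that lies above the 0.885% of all tiles but holds the 1.36% of the windows 2000 bp away. One of these 3 is the Txndc11 site with a fold of 2.09.

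Words of other factors had shares near or below those of the tiles. The AP-1 word TGANTCA was held by 3.33% of members and 2.77% of tiles, the SOX word AACAAT by 4.24% and 5.88%, and the AP-2 word GCCNNNGGC by 2.12% and 2.06%. The NF-Y word CCAAT was held by 9.39% of members (6.70% to 13.03%) and 13.8% of tiles, and the SP/KLF word GGGCGG by 1.21% and 2.30%. The CRE word TGACGTCA and the ETS word CCGGAAG were in 0 members, with the same bounds, and in 0.0703% and 0.462% of tiles. All words were searched on both strands, and a match or its lack says nothing on its own about the factor.

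**Figure D5:**
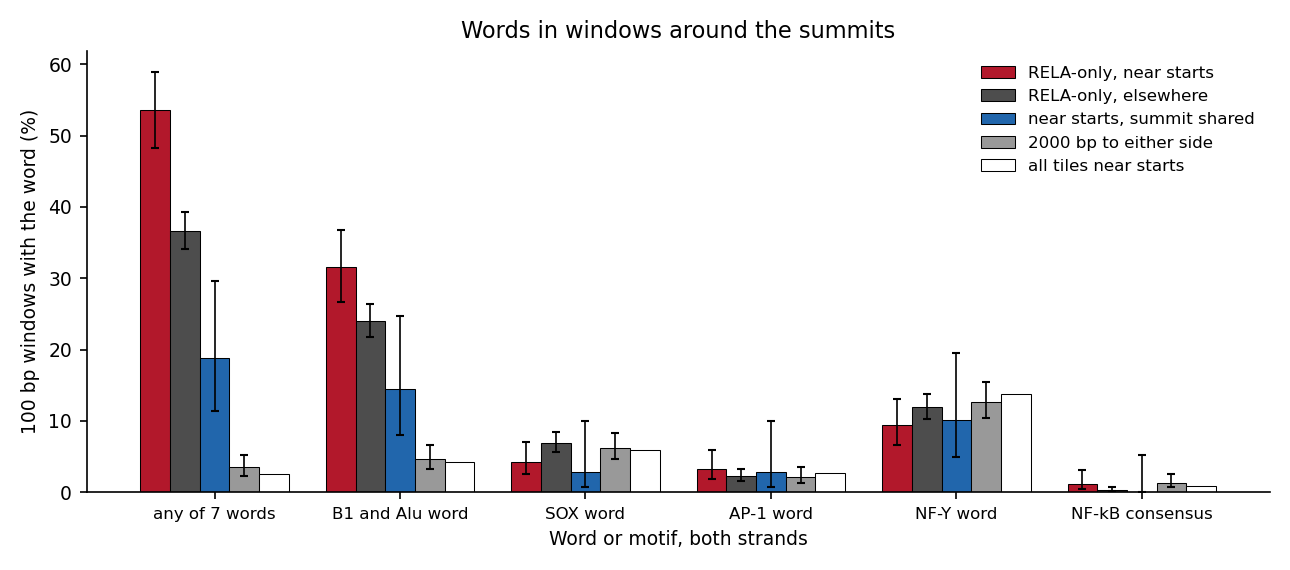
Share of 100 bp windows that hold any of the 7 recurrent words, the word GCTGGGA of B1 and Alu elements or the word of a factor, on both strands, with Wilson 95% intervals, in 3 groups of RELA TNF sites, in windows 2000 bp to either side of the 330 sites and in all tiles within 10 kb of starts (no interval). The 330 sites hold one of the 7 words in 53.6% and the NF-κB consensus in 1.21%.

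Genes of NF-κB signalling were among the neighbours of the sites, in low numbers. Of 31 subunits, inhibitors and regulators of NF-κB, 2 had a start within 10 kb of a member, 6.45% (1.79% to 20.7%), an interval that holds the 1.88% of all protein-coding genes. Both encode IκB proteins. The site of Nfkbib, which encodes IκBβ, lay in its intron 5178 bp downstream of the start, with 26 fragments and a fold of 13.5, nearer to the start of Sirt2. The site of Nfkbie, which encodes IκBε, lay in its 3′ UTR 6900 bp downstream, also with 26 fragments and a fold of 13.5, nearer to the start of Slc35b2.

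Of 28 genes of TNF receptor signalling, 3 had a site, 10.7% (3.71% to 27.2%), an interval above the 1.88% of all genes. The lists were chosen with results of these data known, so this is a description. Cflar, the inhibitor of apoptosis at death receptors, had 17 fragments in its intron, 7865 bp downstream. Sqstm1, the p62 adaptor of selective autophagy, had 29 at 6609 bp upstream, in an intron of Mgat4b. Tnfrsf9, a costimulatory receptor of the TNF receptor family, had 21 in its intron, 6998 bp downstream. Of 41 cytokines, chemokines and adhesion genes, Edn1 alone had one. Of 32 genes of TGF-β, BMP and Wnt signalling, Smad4, the common mediator of TGF-β signals, had 25 fragments at 2644 bp upstream, and Lrp5, a Wnt coreceptor, had 21 at 4490 bp downstream. Among 27 cytosolic ribosomal proteins, Rps27 had 28 fragments at 7205 bp, in an intron of Nup210l.

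No member lay near any of the 32 genes of extracellular matrix and proteases, 27 of AP-1 and MAP kinases, 30 of interferon and antigen presentation, 11 SOX genes, 16 markers of fibroblasts and synovial lining, 30 chromatin regulators, 24 of autophagy and ubiquitin, 20 leukocyte markers or 18 markers of endothelium, muscle and cartilage. The upper bounds of these counts of 0 ran from 10.7% to 25.9%, so each interval held the 1.88% of all protein-coding genes. The lists are short and do not cover their classes. Among genes not on them, the leukocyte genes Cd163 and Ccr7 and the chromatin genes Srcap and Smarca5 had a member within 10 kb. So did the matrix genes Lama3 and Chad and the ubiquitin genes Ube2g2 and Usp9x. Sqstm1, which acts in autophagy, was counted under TNF receptor signalling. Over all lists 9 of 365 genes had a site, 2.47% (1.303% to 4.62%), and 1.88% of all protein-coding genes did. The interval of the pooled share held that of all genes. At these 9 sites the summit was soft-masked in 8, all but Edn1, and 8 held one of the 7 words.

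The study had named 638 genes whose response to TNF in FLS depended on the SoxC genes, of which 481 were matched as protein-coding genes on these chromosomes. A start within 10 kb of a member was found for 12 of them, 2.49% (1.43% to 4.31%), an interval that holds the 1.88% of all protein-coding genes. The strongest site was 1118 bp upstream of Procr, the endothelial protein C receptor, with 39 fragments and a fold of 19.96. Il1r1, the signalling receptor of IL-1, had 34 fragments and a fold of 17.5 in an intron 9080 bp downstream. Sqstm1 and Nfkbib were on this list too, and Lyst, a regulator of lysosomal traffic, had 26 fragments in an intron. The sites of the other 7 genes had folds of 5.34 to 12.97, and 9 of the 12 sites were soft-masked.

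Gene families were looked up after the values had been seen. They were set by gene symbol, so that genes of a family with other symbols are left out. Sites lay within 10 kb of 14 of 1134 olfactory receptor genes, 1.23% (0.737% to 2.06%), of 6 of 394 Zfp genes, 1.52% (0.700% to 3.28%), and of 7 of 371 solute carriers, 1.89% (0.917% to 3.84%). They lay near 3 of 82 genes with Il symbols (interleukins and their receptors), 3.66% (1.25% to 10.2%), and 2 of 35 with Ccl or Cxcl symbols (chemokine ligands), 5.71% (1.58% to 18.6%). Of 31 genes with Tnfsf or Tnfrsf symbols, 2 had a site, 6.45% (1.79% to 20.7%). Ltbr, a TNF receptor superfamily gene without such a symbol, had its start within 10 kb of the site nearest to Scnn1a. Of 12 Toll-like receptors 1 had a site, 8.33% (1.49% to 35.4%), and of 53 keratins 0 had one. Each of these intervals held the 1.88% of all genes, and that of the histones did not. The starts of 7 of 67 histone genes, 10.4% (5.15% to 20.03%), lay near just 2 sites, in histone clusters of chromosome 13, so that the number of genes does not stand for as many sites.

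The genes with 3 or more sites differed from the rest of the members. The 4 sites of Gm14226 lay in its introns within chr2:155022270-155024181, where the agouti gene a is also annotated, with 9 to 11 fragments, the lowest number being the lowest of all members. None of the 4 was soft-masked. The 3 Txndc11 sites lay within chr16:11143934-11144281, in an intron of Zc3h7a, and had 56 fragments each, but over a local background of 16.3 to 28.0, so that their folds were 1.96 to 3.30. Both the highest background and the lowest fold of the 330 sites were there.

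The members nearest to a summit of another list were those of Malt1, with 71 fragments, and of Gm17267, with 15. They lay 265 bp and 477 bp from a RELA untreated summit, and that of Malt1 also lay 271 bp from a SOX4 TNF summit. Left out were sites by Sox4 and Olfr855, 27 bp and 32 bp from a SOX4 TNF summit, with 13 and 68 fragments. Malt1 and Gm17267 had the 2 members with another list's summit within 10 kb, and 16 members had one within 100 kb. At the 10 kb limit, Ppm1d (9914 bp) and Jakmip3 (9934 bp) were kept with 25 and 16 fragments, and Gm9747 (10070 bp) and Slc22a20 (10105 bp) were not, with 23 and 13.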

How the data were processed

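Peak lists of 4 ChIP-seq libraries, each from the DNA of 3 pooled cultures, were used as deposited. The authors called the peaks with MACS2, in Strand NGS software, from reads of 50 bases on mm10, setting 1 input library as control. The file headers give 300 as the fragment length and 1e-05 as the largest p-value. The aligner used within that software and the treatment of duplicate reads are not given in the sources used here, and total reads per library were not analysed. The deposited P and Q scores are −log10 p-values and q-values per peak, and the deposited fold change is a ratio over the background. Positions were taken as counted from 1. The scripts solved fold = (fragments + 1)/(background + 1) with the Poisson p-value, which had a whole-number solution for all 330 members. The summits of other lists and gene starts were compared by position. Soft-masked bases, copies of the 50-base window (in 66 reference sequences) and words in windows of 100 bp were read from the GRCm38 reference, with tiles of 100 bp and windows 2000 bp away as background. Shares have Wilson 95% intervals and medians have order-statistic intervals. No p-value was computed across peaks. The members and gene lists were chosen with earlier results of these data known. Named are the 10 sites with the highest −log10 q, the 10 nearest to a start, sites of listed genes, genes with 3 or more sites, the sites nearest to the limits and the 5 strongest of the study's list. Left out were 432 RELA TNF peaks on chromosome Y or other sequences. The code was tested on simulated data and ran on matplotlib 3.10.9, numba 0.67.0, scipy 1.17.1, pandas 2.3.3, numpy 2.4.6 and Python 3.11.15. The sequence windows of other sites are not reported here.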

Additional observations from a re-analysis of the deposited data

How the results depend on the processing

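The 11 results were recomputed under 15 alternatives, in 138 values, and 119 of them stayed within 1.5 times the main count or within the interval of the main share or median. The number of sites was 172 with a limit of 5 kb, 557 with 20 kb and 595 with the starts of all annotated genes, as these settings admit fewer or more bases. The share within 1 kb of a start then became 13.95%, 4.31% and 11.8%, and 11.2% with the starts of all protein-coding transcripts. With 5 kb, 3 genes of the fixed lists had a site. In summits outside soft-masked bases the word GCTGGGA stood in 10.4% and the NF-κB consensus in 3.90%, 3 of 77 sites. The median fold enrichment stayed between 9.98 and 10.98 under the 12 alternatives run for it, and the soft-masked share between 75.2% and 80.7% under the 13 run for it. No paired analysis was possible because the conditions have a single pooled library each. With 9 to 71 fragments at a summit and no reads, counting error limits the folds of single sites, and a site missing from another list may lie below that list's threshold.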
